A study of Mus musculus with 7 samples.

Results

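The adult mouse parotid gland was compared with the parotid of mice at postnatal day 18 (P18), as adult minus P18, over every gene that passed an expression filter. The table of gene counts held 23366 genes, and 15129 of them passed edgeR's filterByExpr (min.count 10, min.total.count 15) and were tested. The comparison uses 3 adult libraries, labelled as 12 weeks old, and 2 P18 libraries. The study also has 2 P18 libraries of the submandibular gland. They enter the filter and the scaling, and the same fit, where they share the estimate of the spread. They were more alike (correlation of log2 levels 0.991) than the 2 P18 parotid libraries (0.933). With only the parotid libraries in the fit, 2182 genes passed the test in place of 3915. No treatment, transgene or mutation is named in the labels of any group, and they give no strain, sex or genotype. The material is described both as whole tissue and as isolated epithelial cells, so the cells that were sequenced are not settled by the labels. No label says that replicates are different animals. The p-values measure only the spread between these libraries, which may be technical.

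The parotid is the serous salivary gland. Its acinar cells make and store saliva proteins such as amylase in granules and release them on nervous stimulation, and its striated and excretory ducts change the salt content of the primary fluid and add kallikreins and growth factors. Mouse pups at this age still suckle and are beginning to take solid food, and in rodents the acinar cells go on dividing, growing and filling with granules after birth.

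The 5 parotid libraries held 12844534 to 28856127 counts. They differed more in make-up than in depth: the 10 most abundant genes took 17.8% and 9.05% of the counts at P18 and 65.4%, 62.2% and 62.6% in the adult, and 3 genes alone held over 50% of the counts in each adult library against 745 and 679 genes in the P18 libraries. Acinar markers were present in all 5 libraries (Bpifa2, Amy1 and Prb1). The defining submandibular product Smgc was near 0 in 4 of them and at 24.1 CPM (counts per 1000000, scaled by edgeR's TMM factors) in adult replicate 2, which also held the mucin Muc19 at 218 CPM and the cargo receptor Lman1l at 24.9 CPM. Adult replicate 1 held the female-specific RNA Xist at 272 CPM and no count of the Y-linked genes Ddx3y, Eif2s3y, Kdm5d and Uty, while the other 4 parotid libraries had Xist below 1 CPM and every one of these Y-linked genes at 21.4 CPM or more. Adult replicate 1 also led in lymphoid and lymph node genes, with Glycam1 at 335, 30.0 and 22.6 CPM over the adult libraries. The P18 libraries differed from each other. The median log2 difference of replicate 2 from replicate 1 was 2.05 over brown fat genes, 2.2 over skeletal muscle genes and 1.73 over genes of the citric acid cycle and fatty acid oxidation, and -1.73 over serous products and -2.47 over B cell genes. The part that these library differences play in the results was not tested, and values without single libraries are given where they move a result.

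In the adult 1625 genes rose and 2290 fell, 3915 in all, at an adjusted p below 0.05 (edgeR's quasi-likelihood F test with Benjamini-Hochberg adjustment over 15129 genes). These are 25.9% of the genes tested in either direction, 10.7% higher and 15.1% lower in the adult. The counts called in each list below are to be read against these shares. A change of at least 4-fold was reached by 290 of the genes that rose and 780 of those that fell. Of the 3915 genes, 3913 had no overlap between the adult and the P18 libraries, which held for 54% of all genes tested (26.6% with the adult higher and 27.4% with the adult lower). The 2 exceptions, Ccl7 and Gmpr, are not described further, so the groups of every gene called below lay apart. With each library left out in turn, 1237 genes kept their call throughout (421 higher and 816 lower). Leaving out a library gave 1306 genes called (without adult replicate 2) to 6073 (without P18 replicate 1), and 1861, 2150 and 2168 without adult replicate 3 and submandibular replicates 1 and 2. When the test asked for a change of more than 2-fold, 137 genes were higher and 425 lower. All fold changes here are relative to the bulk of genes, because the TMM factors (1.72 and 1.55 at P18, and 0.640, 0.715 and 0.718 in the adult) remove the weight of the few secretory genes. With plain library sizes the median log2 fold change of all genes moved by -1.23 and the split became 167 higher and 10786 lower, 1.52% higher against 41.5% with the factors. Medians of lists are therefore also given with plain library sizes where that changes their sign. In such bulk samples fewer cells of a type and less RNA per cell cannot be told apart.

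Saliva proteins of the acinar cell were among the genes with large rises. Of 18 serous products tested, 7 rose and 1 fell, with a median log2 fold change of 3.25 (2.0 with plain library sizes and 5.50 without P18 replicate 1), against a median of -0.01 over all genes. Summed over the list, they gave 81332 and 22233 CPM in the P18 libraries and 985408, 796614 and 822619.7 CPM in the adult libraries. These sums carry the TMM scaling and are not shares of a library. As shares of all counts the list held 14.0% and 3.44% at P18 and 63.0%, 57.0% and 59.1% in the adult. Car6, the secreted carbonic anhydrase of saliva, had 31.5 and 10.4 CPM at P18 and 13200.0, 20696 and 21577 CPM in the adult. The adult mean was 881 times the P18 mean, a log2 fold change of 9.78 ± 1.23 (± standard error throughout) with an adjusted p of 0.00368. Chia, an acidic chitinase, had 351 and 98.4 CPM at P18 and 56717, 34095 and 35299 CPM in the adult, a log2 fold change of 7.55 ± 1.68 (adjusted p = 0.019). Dnase1, a secreted nuclease, had 211 and 21.5 CPM at P18 and 21198, 20889.7 and 22605 CPM in the adult, a log2 fold change of 7.54 ± 1.28 (adjusted p = 0.00874). In these genes the P18 libraries differed from each other more than the adult libraries did, with P18 replicate 2 the lower each time. Pip, the prolactin-induced protein of saliva and tears, had 554 and 70.8 CPM at P18 and 22338, 11319.8 and 12889 CPM in the adult and rose by 5.64 ± 1.19 (adjusted p = 0.0165). Amy1, the salivary amylase that digests starch, had 3510.0 and 1980.3 CPM at P18 and 143092, 165314 and 164381 CPM in the adult and rose by 5.84 ± 1.69 on the log2 scale, with an adjusted p of 0.042 just inside the threshold. Azgp1, a zinc-binding glycoprotein of secretions, was the smallest rise on the list at 2.11 ± 0.40 (adjusted p = 0.0121), and Prol1, a proline-rich product, rose by 6.54 ± 0.78 (adjusted p = 0.00312) from 1.32 and 0.358 CPM to 77.9, 66.5 and 91.4 CPM. In TPM, which corrects for gene length, Bpifa2 stood first in the adult with 379856, 338628 and 358349.7, followed by Smr3a with 233849, 223343 and 217656 and Amy1 with 57396, 80276 and 79198, in that order in each adult library and with no overlap. Amy1 lost its call in at least 1 fit that left out a single library.

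The promoters of 4 secretory genes that rose, chosen after their values were seen, are shown because these genes moved together. The sequences are the 150 bases before the annotated start, 5′ to 3′ on the gene's strand. They come from RefSeq on build GRCm38.p6, which is not the build of the counts (mm9). Where a gene had several annotated starts, only the most upstream was used, here and in the shares below. Capitals mark TATAAA, looked for between 45 and 16 bases before the start. Car6 lies on chr4:150201136-150201285 (minus strand), Chia (Chia1 in RefSeq) on chr3:106113232-106113381 (plus), Dnase1 on chr16:4036886-4037035 (plus) and Pip on chr6:41847399-41847548 (plus).
Car6: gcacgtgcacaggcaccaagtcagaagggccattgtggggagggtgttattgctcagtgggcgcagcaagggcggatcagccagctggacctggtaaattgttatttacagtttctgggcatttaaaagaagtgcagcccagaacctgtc
Chia: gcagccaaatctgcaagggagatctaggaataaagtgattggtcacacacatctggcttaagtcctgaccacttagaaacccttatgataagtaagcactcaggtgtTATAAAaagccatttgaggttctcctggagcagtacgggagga
Dnase1: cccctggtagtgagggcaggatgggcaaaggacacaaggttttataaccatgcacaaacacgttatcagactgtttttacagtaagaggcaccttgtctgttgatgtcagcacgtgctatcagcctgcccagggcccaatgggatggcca
Pip: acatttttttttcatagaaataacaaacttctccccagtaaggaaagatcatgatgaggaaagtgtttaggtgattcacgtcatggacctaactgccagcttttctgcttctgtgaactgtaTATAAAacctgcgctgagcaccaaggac
Chia and Pip hold TATAAA, first base at position -43 and -28, and Car6 and Dnase1 do not hold these letters in that window. Amy1, Bpifa2, Smr3a, Prol1, Wfdc12, Slpi and Igj were looked up in the same way, and none of them held these letters there either. On the gene's own strand TATAAA was found in 1.72% of the 11844 tested genes with a promoter in the table, and in 8.33% of the 216 genes that rose by at least 4-fold and have one (18 genes). The share was 5.19% among 520 genes that fell by at least 4-fold and 2.36% over all 27025 promoters. On the opposite strand the same window held it in 0.422%, 0.463%, 1.35% and 0.770% of these sets. The GC box GGGCGG, on either strand within 250 bases before the start, was in 56.2% of tested genes, 30.6% of those that rose by at least 4-fold and 38.5% of those that fell by as much. These are counts of letters and were not tested.

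Bpifa2 and Smr3a were higher in every adult library than at P18 without passing the test. Bpifa2, the parotid secretory protein of the BPI fold family, had 64404 and 17549.8 CPM at P18 and 499492, 367807 and 392300.5 CPM in the adult, a log2 difference of 3.36 ± 1.97 (adjusted p = 0.233). Smr3a, a proline-rich saliva protein, had 4080.1 and 646 CPM at P18 and 212146, 167363 and 164389 CPM in the adult, a difference of 6.26 ± 2.1 (adjusted p = 0.0636). Neither gene's groups overlapped, and P18 replicate 1 was far above P18 replicate 2 in both. Cst10, a cystatin, had 2319.8 and 846 CPM at P18 and 14392, 7184 and 6928 CPM in the adult (adjusted p = 0.183). Not every acinar product was high. The proline-rich proteins Prb1 and Prpmp5 had 2440.0 and 240.1 CPM and 1696 and 282 CPM at P18 against 530.4, 289 and 365 CPM and 575, 368 and 369.8 CPM in the adult, where the adult values overlapped those of P18. The peroxidase Lpo had 1707 and 482 CPM at P18 and 1610.0, 1190.1 and 1391 CPM in the adult, also overlapping. With all libraries Smr2 was the member that fell, from 46 and 32 counts at P18 to 0, 2 and 0 counts in the adult, a ratio of 41.0 with a 95% exact Poisson interval of 11 to 345 that covers counting error only (adjusted p = 0.00998). With single libraries left out, 6 (without P18 replicate 2 or adult replicate 1 or 2 or 3 or submandibular replicate 1 or 2) to 10 (without P18 replicate 1) serous products rose, and 4 fell without P18 replicate 2. Proline-rich, Smr and amylase genes have near-identical copies, and reads can be split between them.

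**Figure D1:**
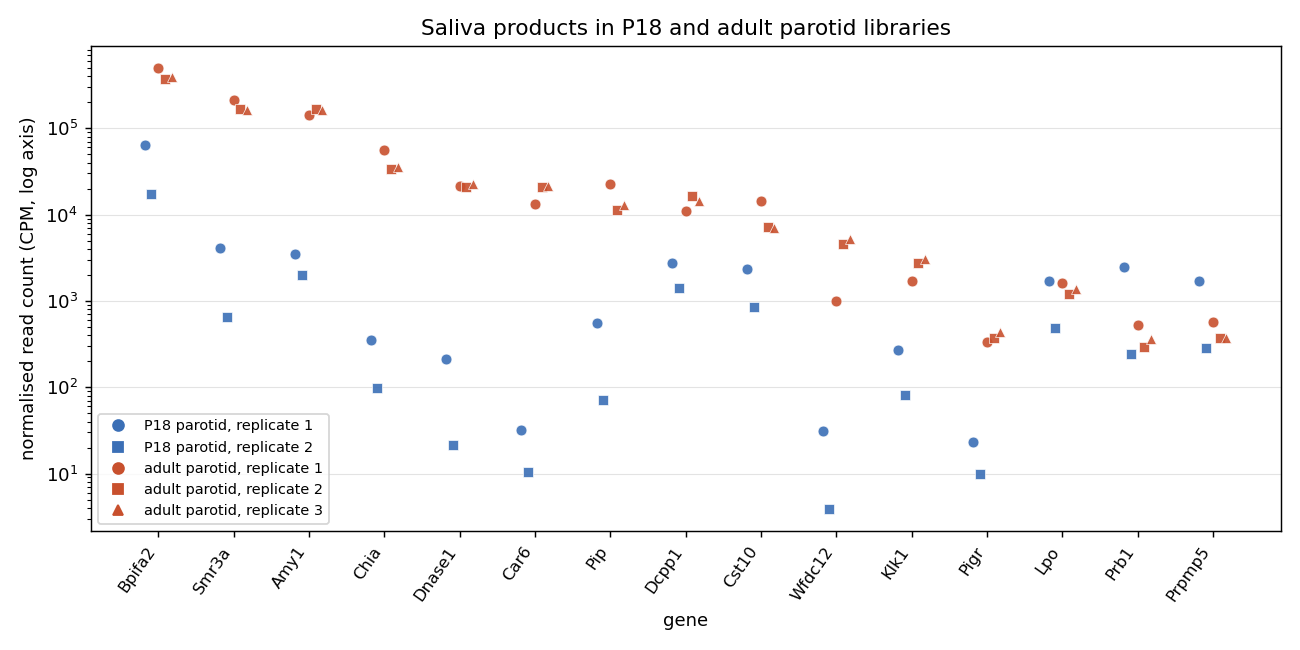
Normalised read counts (CPM, logarithmic axis) of 15 saliva products in each parotid library, with colour for the age group and symbol for the replicate. The adult points of Car6 lie between 13200 and 21577 CPM against 31.5 and 10.4 CPM at P18, while those of Lpo, Prb1 and Prpmp5 fall within the spread of the P18 libraries.

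Of the demilune and mucous products 1 of 9 passed the test. The count was 3 without P18 replicate 1, 2 without either submandibular library and 3 by DESeq2, and the median of 1.41 moved to 0.11 without adult replicate 2 and to 2.18 without P18 replicate 1. Dcpp2, a demilune and parotid protein, had 91.0 and 61.8 CPM at P18 and 1214, 1603 and 539 CPM in the adult and rose by 3.87 ± 0.75 (adjusted p = 0.0123). Its near-identical neighbours Dcpp1 (2721 and 1395 CPM at P18 and 11002, 16534 and 14420.2 CPM in the adult) and Dcpp3 (797 and 520.5 CPM at P18 and 2400.3, 2928 and 1519 CPM in the adult) were higher in each adult library without passing (adjusted p = 0.115 and 0.158). Among the genes with the largest changes some are not on a list of gland products. Csn3, kappa-casein, a milk protein whose gene belongs to a cluster with proline-rich saliva protein genes, had 0.499 and 0.0896 CPM at P18 and 54.5, 45.4 and 51.0 CPM in the adult and rose by 7.39 ± 0.53 (adjusted p = 0.00133). Mup5, a major urinary protein that carries small hydrophobic molecules, had 1.5 and 3.72 CPM at P18 and 509, 242 and 304 CPM in the adult and rose by 7.07 ± 0.61 (adjusted p = 0.00133). The clone-named gene 2310057J18Rik had 47.3 and 1.61 CPM at P18 and 29406, 33950.4 and 37149 CPM in the adult (10.42 ± 1.86, adjusted p = 0.00997), with P18 replicate 2 far below replicate 1.

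The following genes were among those that rose with the smallest adjusted p. St6galnac2, a sialyltransferase that caps O-glycans, had 8.17 and 6.49 CPM at P18 and 81.3, 97.5 and 103 CPM in the adult (3.68 ± 0.21, adjusted p = 0.000463). Serpina3n, a secreted serine protease inhibitor, had 5.76 and 4.75 CPM at P18 and 28.6, 35.7 and 37.4 CPM in the adult (2.69 ± 0.23, adjusted p = 0.00133). Dusp26, a dual-specificity phosphatase, had 2.68 and 2.55 CPM at P18 and 52.4, 47.6 and 44.1 CPM in the adult (4.19 ± 0.34, adjusted p = 0.00132). The chemokines Cxcl14 and Ccl8 rose by 2.56 ± 0.20 and 4.72 ± 0.41 (adjusted p = 0.0011 and 0.00133), with Ccl8 at 2.22 and 1.70 CPM at P18 and 74.3, 43.9 and 37.6 CPM in the adult. Tesc, a calcium-binding protein, had 6.26 and 3.94 CPM at P18 and 38.6, 37.4 and 32.6 CPM in the adult and rose by 2.82 ± 0.25 (adjusted p = 0.00133). Rnasek and Rnf5, a ubiquitin ligase of the endoplasmic reticulum, rose by 1.92 ± 0.17 and 1.71 ± 0.16 (adjusted p = 0.00142 and 0.00143). In none of these genes did the highest P18 library reach the lowest adult library.

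Duct genes rose as well. Of 15 tested granular duct products, 12 rose and none fell (median 3.25), with 11 (without P18 replicate 2 or adult replicate 2 or 3 or submandibular replicate 1 or 2) to 14 (without P18 replicate 1) called when single libraries were left out. Klk1, the tissue kallikrein, had 267 and 81.9 CPM at P18 and 1684, 2762 and 3062 CPM in the adult and rose by 3.84 ± 0.65 (adjusted p = 0.00876). The counts of the Klk1b genes lay far below those of Klk1. Klk1b9 had 1.81 and 0.985 CPM at P18 and 14.6, 11.6 and 11.2 CPM in the adult and rose by 3.15 ± 0.32 (adjusted p = 0.0021). Klk1b5 had 0.454 and 0.224 CPM at P18 and 6.75, 8.14 and 8.88 CPM in the adult and rose by 4.52 ± 0.37 (adjusted p = 0.00132). The Klk1b copies are so alike that a part of their reads may come from Klk1, and their split is uncertain. Egf, the epidermal growth factor of duct cells, had 77.3 and 29.0 CPM at P18 and 98.8, 125 and 142 CPM in the adult and did not pass (adjusted p = 0.0632).

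The epithelial sodium channel of duct cells, which takes sodium back from the saliva, rose in each of its subunits. Scnn1a had 5.58 and 2.37 CPM at P18 and 22.4, 26.4 and 30.2 CPM in the adult (2.73 ± 0.38, adjusted p = 0.00491), Scnn1b rose by 1.80 ± 0.33 (adjusted p = 0.0108) and Scnn1g by 1.55 ± 0.43 (adjusted p = 0.0365). Foxi1, the transcription factor of ionocytes, had 1.72 and 0.940 CPM at P18 and 4.89, 6.49 and 6.46 CPM in the adult and rose by 2.16 ± 0.33 (adjusted p = 0.0066). Of the 18 ductal genes 8 rose, with a median of 1.53 and 5 (without adult replicate 2) to 17 (without P18 replicate 1) called with single libraries left out. The luminal keratins did not pass: Krt8 had 114 and 49.8 CPM at P18 and 127, 123 and 117 CPM in the adult (adjusted p = 0.224), Krt18 had 204 and 75.4 CPM at P18 and 166, 194 and 186 CPM in the adult (adjusted p = 0.494) and Krt19 had 5.99 and 1.88 CPM at P18 and 34.0, 10.6 and 9.02 CPM in the adult (adjusted p = 0.0648). Basal and myoepithelial keratins did rise, Krt5 by 1.71 ± 0.36 (adjusted p = 0.0166) and Krt14 by 1.12 ± 0.33 (adjusted p = 0.0417), while among the contractile genes of the same cells Myh11 fell by 0.93 ± 0.18, Mylk fell by 0.74 ± 0.14, and Acta2 had 96.6 and 103 CPM at P18 and 101, 90.3 and 80.1 CPM in the adult with overlapping groups. Myh11 and Mylk belong to the smooth muscle of vessels too. Of 10 classes of gene length, described below, they lie in the longest, in which 45% of genes fell. Krt5 and Krt14 lie in shorter classes. Scnn1g, Krt5, Krt14, Myh11 and Mylk lost their calls in at least 1 fit that left out a single library.

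Water and ion transport changed in parts. Of 23 genes 5 rose and 3 fell (median 0.35, and -0.89 with plain library sizes), and 0 (without adult replicate 2) to 12 (without P18 replicate 1) rose with single libraries left out. The water channel of the apical acinar membrane, Aqp5, had 83.7 and 30.3 CPM at P18 and 182, 224 and 199 CPM in the adult and rose by 1.82 ± 0.41 (adjusted p = 0.0202). The sodium pump subunit Atp1b1 rose by 1.84 ± 0.43 (adjusted p = 0.0228), and so did Kcnn4, the calcium-activated potassium channel, at 144 and 65.1 CPM at P18 and 308, 339.6 and 366 CPM in the adult (1.69 ± 0.35, adjusted p = 0.0151). The basolateral chloride loader Slc12a2 had 570.0 and 289.7 CPM at P18 and 733, 942 and 959 CPM in the adult (adjusted p = 0.0755), and the apical chloride channel Ano1 had 139 and 112 CPM at P18 and 158, 138 and 186 CPM in the adult, with overlap. The muscarinic receptors that start fluid secretion overlapped, Chrm3 with 21.0 and 9.05 CPM at P18 and 16.8, 17.5 and 21.6 CPM in the adult and Chrm1 with 2.63 and 0.717 CPM at P18 and 1.96, 1.91 and 2.32 CPM in the adult. The genes that fell were Itpr2, an inositol trisphosphate receptor that releases calcium (231 and 427 CPM at P18 and 64.8, 63.8 and 74.9 CPM in the adult, -2.28 ± 0.27, adjusted p = 0.00317), Slc4a4, a bicarbonate cotransporter (-2.05 ± 0.45, adjusted p = 0.0183), and Trpc1, a cation channel (-1.88 ± 0.51, adjusted p = 0.0359). Each of these was higher in P18 replicate 2 than in replicate 1. Of 10 classes of gene length, described below, Itpr2 and Slc4a4 lie in the longest, in which 45% of genes fell. With the gene-length trend removed 7 genes of this list rose and 2 fell (median 0.55). Aqp5, Atp1b1, Kcnn4, Slc4a4 and Trpc1 lost their calls in at least 1 fit that left out a single library.

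Genes of granule release were called in part. Of 18 exocytosis genes 5 rose and 1 fell (median 0.56, and -0.68 with plain library sizes), and 3 (without adult replicate 2 or 3 or submandibular replicate 1 or 2) to 10 (without P18 replicate 1) rose with single libraries left out. Genes of granule SNARE proteins rose relative to the bulk of genes. Vamp8 had 33.8 and 33.6 CPM at P18 and 77.8, 85.8 and 78.1 CPM in the adult (1.26 ± 0.16, adjusted p = 0.00352). Vamp2 had 18.8 and 9.67 CPM at P18 and 41.0, 79.8 and 78.3 CPM in the adult (2.22 ± 0.44, adjusted p = 0.0131). Stx4a, a plasma membrane syntaxin, rose by 0.98 ± 0.16 (adjusted p = 0.00831) and the granule GTPase Rab26 by 1.80 ± 0.42 (adjusted p = 0.0227). As shares of all counts the ages overlapped in Vamp8 and Stx4a. Vamp8 held 0.00579% and 0.00521% at P18 and 0.00498%, 0.00614% and 0.00561% in the adult. Stx4a held 0.00295% and 0.0025% at P18 and 0.00196%, 0.00253% and 0.00234% in the adult. Their mean TPM was lower in the adult, 85.4 against 133 for Vamp8 and 20.2 against 38.2 for Stx4a. Rab3d (106 and 62.5 CPM at P18 and 149, 139 and 140.3 CPM in the adult) and Rab27b (44.1 and 18.8 CPM at P18 and 39.0, 37.1 and 39.6 CPM in the adult), other granule GTPases, did not pass. Complexin 2, Cplx2, which clamps SNARE complexes, fell by 1.38 ± 0.35 (adjusted p = 0.0293). Rab26 and Cplx2 lost their calls in at least 1 fit that left out a single library.

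Of 34 genes for folding and export in the endoplasmic reticulum, 9 rose and none fell, but the median was 0.56 and turned to -0.69 with plain library sizes. The number that rose was 2 (without adult replicate 2) to 19 (without P18 replicate 1) with single libraries left out. Herpud1, which takes part in the degradation of misfolded proteins, had 130.2 and 94.9 CPM at P18 and 306, 293 and 283 CPM in the adult (1.39 ± 0.23, adjusted p = 0.00775), and Dnajb9, a co-chaperone, had 26.4 and 22.4 CPM at P18 and 59.2, 64.9 and 56.2 CPM in the adult (1.30 ± 0.18, adjusted p = 0.00495). The most abundant chaperones overlapped between the ages, Hspa5 (BiP) with 387 and 439.6 CPM at P18 and 474, 528 and 433 CPM in the adult and Calr with 362 and 291 CPM at P18 and 331, 303 and 275 CPM in the adult. With plain library sizes 18 of the 34 fell and 0 rose, so the direction of this list depends on the scaling. Xbp1, the transcription factor that drives the secretory programme, had 168 and 112 CPM at P18 and 396, 411 and 409 CPM in the adult and rose by 1.53 ± 0.26 (adjusted p = 0.00902). Creb3l1, a membrane-bound factor of the same kind, rose by 2.04 ± 0.59 (adjusted p = 0.0423), Atf4 by 0.81 ± 0.25 (adjusted p = 0.0499) and Tfeb by 0.78 ± 0.19 (adjusted p = 0.0257). Bhlha15 (MIST1), the scaling factor of serous exocrine cells, had 238 and 67.1 CPM at P18 and 316, 506 and 532 CPM in the adult and did not pass (1.57 ± 0.53, adjusted p = 0.0648). With single libraries left out, 1 (without adult replicate 2 or 3 or submandibular replicate 1 or 2) to 5 (without P18 replicate 1) of the 12 factors rose. Creb3l1, Atf4 and Tfeb lost their calls in at least 1 fit that left out a single library.

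Transcription factors of gland identity were present at both ages. Of 23 tested, 3 rose and none fell (median 1.04, -0.23 with plain library sizes). With single libraries left out 1 (without adult replicate 2 or submandibular replicate 1 or 2) to 15 (without P18 replicate 1) rose. Pitx1, a factor of the oral epithelium, had 15.7 and 6.81 CPM at P18 and 31.5, 52.5 and 51.1 CPM in the adult (2.0 ± 0.39, adjusted p = 0.0129). Sox10, which marks acinar, intercalated duct and myoepithelial lineages, had 61.5 and 19.4 CPM at P18 and 96.4, 174 and 176 CPM in the adult (1.88 ± 0.50, adjusted p = 0.0332). Both were lowest in P18 replicate 2, the library with the least serous product. Sox10 lost its call in at least 1 fit that left out a single library.

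Genes of saliva defence and IgA transport were among those that rose. Of 11 tested 7 rose and none fell (median 1.94), and 5 (without P18 replicate 2 or adult replicate 2 or submandibular replicate 1 or 2) to 7 (without adult replicate 1) rose with single libraries left out. Pigr, the receptor that carries IgA across the epithelium into saliva, had 22.9 and 9.85 CPM at P18 and 333, 371 and 435 CPM in the adult and rose by 4.53 ± 0.49 (adjusted p = 0.00228). Igj, the joining chain of IgA and IgM made by plasma cells, had 1.86 and 0.940 CPM at P18 and 314, 109 and 55.8 CPM in the adult and rose by 6.82 ± 0.92 (adjusted p = 0.00449). Wfdc12, a small protease inhibitor, had 30.8 and 3.85 CPM at P18 and 1004, 4590.2 and 5264 CPM in the adult (7.71 ± 1.32, adjusted p = 0.00902), lowest among the adults in replicate 1. Its relative Slpi, the secretory leukocyte peptidase inhibitor, had 0.227 and 0.179 CPM at P18 and 179, 21.3 and 6.03 CPM in the adult (8.35 ± 1.86, adjusted p = 0.0191), and here replicate 1 was the highest adult library. Lcn2, which binds bacterial iron carriers, rose by 2.46 ± 0.56 (adjusted p = 0.0207), and lactoferrin, Ltf, had 2.50 and 0.0448 CPM at P18 and 29.6, 2.67 and 0.241 CPM in the adult with overlapping groups. Slpi and Lcn2 lost their calls in at least 1 fit that left out a single library.

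Most genes of antigen presentation rose. Of 16 tested, 12 rose and none fell (median 1.63), and 9 (without adult replicate 2) to 16 (without P18 replicate 1) rose with single libraries left out, against 10.7% of all genes. The class II genes H2-Eb1 (53.5 and 28.8 CPM at P18 and 392, 248 and 215 CPM in the adult, 2.79 ± 0.39, adjusted p = 0.00491) and H2-Ab1 (2.64 ± 0.40, adjusted p = 0.00624) and their invariant chain Cd74 (181 and 78.5 CPM at P18 and 1009, 695 and 586 CPM in the adult, 2.56 ± 0.45, adjusted p = 0.00981) are carried by macrophages, dendritic cells and B cells. The class I light chain B2m, found in nearly all cells, had 248 and 236 CPM at P18 and 1370.0, 787 and 804 CPM in the adult (2.03 ± 0.33, adjusted p = 0.00799). Adult replicate 1 was highest in each of these. Macrophage genes rose in 9 of 17 (median 1.34, 0.07 with plain library sizes), and in 7 (without adult replicate 1 or 2 or 3 or submandibular replicate 2) to 11 (without P18 replicate 1) with single libraries left out. Lyz2, the lysozyme of myeloid cells, had 74.7 and 124 CPM at P18 and 579, 363 and 293 CPM in the adult (2.05 ± 0.37, adjusted p = 0.0105), and the complement genes C1qa, C1qb and C1qc rose by 1.30 ± 0.22, 1.54 ± 0.24 and 1.39 ± 0.22 (adjusted p = 0.00927, 0.00674 and 0.00752). Genes of resident macrophages were not all called: Mrc1 had 54.0 and 90.3 CPM at P18 and 65.7, 63.7 and 71.3 CPM in the adult and Cd163 had 26.0 and 49.7 CPM at P18 and 28.5, 36.3 and 35.0 CPM in the adult, both with overlap.

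The B cell genes showed the weight of single libraries. Only 3 of 16 rose (Igj, Mzb1 and Cd79b). There was no overlap between the groups, with the adult higher, in 13 of the 16, against 26.6% of all genes. Summed over the list, the P18 libraries had 241 and 34.9 CPM and the adult libraries 1118, 579 and 411 CPM. Without P18 replicate 1 all 16 were called, and 2 without P18 replicate 2. Cd79a had 20.3 and 2.73 CPM at P18 and 109.7, 59.3 and 42.0 CPM in the adult (adjusted p = 0.0525) and Ms4a1 had 21.2 and 4.43 CPM at P18 and 104, 39.0 and 29.9 CPM in the adult (adjusted p = 0.0959). Of 18 T cell genes 0 were called by edgeR, 2 had an unadjusted p below 0.05, and DESeq2 called 3 higher. Without P18 replicate 1, 15 were called higher. Cxcl13, the chemokine that draws B cells into follicles, had 6.12 and 0.403 CPM at P18 and 86.2, 34.6 and 25.0 CPM in the adult and rose by 3.89 ± 1.05 (adjusted p = 0.0345), and it is a product of lymph node stroma as well as of lymphoid follicles in glands. The interferon list gave 4 rises in 18 (median 0.95, -0.29 with plain library sizes). They included Bst2 at 12.7 and 15.6 CPM at P18 and 37.1, 36.1 and 35.4 CPM in the adult (1.35 ± 0.20, adjusted p = 0.00587) and Irf7 (1.30 ± 0.32, adjusted p = 0.027), and the list gave 1 (without P18 replicate 2 or adult replicate 2 or 3) to 7 (without P18 replicate 1) with single libraries left out. Mzb1, Cd79b, Cxcl13 and Irf7 lost their calls in at least 1 fit that left out a single library.

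Genes of the amino acid response, for uptake and synthesis of amino acids, were called in part. Of 19 tested 9 rose and 1 fell (median 0.67, -0.56 with plain library sizes), and 4 (without adult replicate 3) to 10 (without P18 replicate 1) rose with single libraries left out. The heavy chain Slc3a2 had 43.4 and 48.0 CPM at P18 and 174, 148 and 168 CPM in the adult (1.84 ± 0.18, adjusted p = 0.00182), and its partner Slc7a5, with which it imports large neutral amino acids, had 28.8 and 8.96 CPM at P18 and 113, 52.4 and 89.0 CPM in the adult (2.16 ± 0.53, adjusted p = 0.0261). Mthfd2, a mitochondrial folate enzyme, had 8.44 and 5.11 CPM at P18 and 30.8, 50.9 and 68.1 CPM in the adult (2.88 ± 0.40, adjusted p = 0.0049), and Asns, asparagine synthetase, rose by 1.16 ± 0.24 (adjusted p = 0.015). Nupr1, a stress-induced nuclear protein, had 18.6 and 19.5 CPM at P18 and 116, 259 and 189 CPM in the adult (3.31 ± 0.36, adjusted p = 0.00238). Trib3 and Ddit3, further genes of this response, overlapped at 1.32 and 4.84 CPM at P18 and 4.89, 2.29 and 1.88 CPM in the adult and 7.30 and 10.8 CPM at P18 and 7.24, 11.3 and 11.6 CPM in the adult. Of the cytosolic aminoacyl-tRNA synthetases 1 of 20 rose, Farsa, by 0.52 ± 0.15 (adjusted p = 0.0436). Cytosolic ribosomal protein genes gave 4 rises in 83 (median 0.51, -0.75 with plain library sizes), and 0 (without adult replicate 2 or submandibular replicate 1 or 2) to 9 (without P18 replicate 1) with single libraries left out. These were Rpl29, Rpl34, Rps10 and Rps21. Pseudogene copies make single ribosomal protein counts uncertain. Slc7a5, Asns, Farsa, Rpl29, Rpl34, Rps10 and Rps21 lost their calls in at least 1 fit that left out a single library.

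Most imprinted genes of the growth phase fell. These genes are expressed from a single parental copy, act on growth before and after birth, and are known to be turned down together as young mammals grow. Of 19 tested, 14 fell and none rose (median -1.93), and 9 (without adult replicate 3) to 15 (without P18 replicate 1) fell with single libraries left out, against 15.1% of all genes. Igf2, the fetal insulin-like growth factor, had 51.1 and 57.7 CPM at P18 and 4.99, 3.12 and 3.43 CPM in the adult and fell by 3.84 ± 0.23 on the log2 scale (adjusted p = 0.000486). H19, the non-coding RNA of the same locus, had 208 and 597 CPM at P18 and 14.6, 9.92 and 20.8 CPM in the adult (-4.73 ± 0.52, adjusted p = 0.00235). Its P18 libraries differed from each other, yet both lay far above the highest adult library. Peg3, a zinc finger protein of the paternal copy, had 103 and 177 CPM at P18 and 4.70, 11.3 and 10.2 CPM in the adult (-3.99 ± 0.39, adjusted p = 0.0019), and its neighbour Zim1 had 16.3 and 22.5 CPM at P18 and 0.196, 0.572 and 0.772 CPM in the adult (-5.11 ± 0.38, adjusted p = 0.00102). From the Dlk1 locus, Dlk1 fell by 2.38 ± 0.36 (adjusted p = 0.00635), Meg3 by 2.22 ± 0.64 (adjusted p = 0.0408) and Rian by 2.44 ± 0.39 (adjusted p = 0.00703), while Rtl1 went from 50 and 56 counts at P18 to 0, 0 and 1 counts, a ratio of 111 (95% exact Poisson interval 19.6 to 4445). The growth-restraining adaptor Grb10 had 49.7 and 83.7 CPM at P18 and 19.6, 16 and 16.8 CPM in the adult (-1.93 ± 0.27, adjusted p = 0.0049), and the receptor that clears IGF2, Igf2r, had 220.1 and 270.4 CPM at P18 and 94.1, 82.8 and 106 CPM in the adult (-1.38 ± 0.20, adjusted p = 0.0056). Nnat (44.6 and 31.8 CPM at P18 and 59.2, 49.0 and 71.8 CPM in the adult), Slc38a4 (4.17 and 9.45 CPM at P18 and 2.45, 3.56 and 12.4 CPM in the adult) and Cdkn1c (6.85 and 20.4 CPM at P18 and 12.0, 3.94 and 4.44 CPM in the adult) did not pass. The P18 submandibular libraries held Igf2 at 54.0 and 51.9 CPM and Peg3 at 109 and 115 CPM, near the P18 parotid values. Meg3 lost its call in at least 1 fit that left out a single library.

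Other factors of the growth phase fell in 5 of 15 cases and rose in none. Igf2bp3, an RNA-binding protein of fetal tissues, had 8.94 and 6.0 CPM at P18 and 0.881, 0.827 and 0.579 CPM in the adult (-3.31 ± 0.32, adjusted p = 0.00176), and Gpc3, a glypican that binds growth factors, had 23.0 and 38.7 CPM at P18 and 7.83, 3.43 and 5.36 CPM in the adult (-2.49 ± 0.36, adjusted p = 0.0057). Sox11 fell by 2.59 ± 0.55 (adjusted p = 0.0171) and Sox4 by 1.10 ± 0.25 (adjusted p = 0.0207). Igf1, the growth factor under growth hormone control, had 54.5 and 53.6 CPM at P18 and 39.7, 35.7 and 41.1 CPM in the adult (-0.48 ± 0.15, adjusted p = 0.057), and its receptor Igf1r overlapped. With single libraries left out 2 (without adult replicate 2 or 3) to 6 (without adult replicate 1) members fell. Signals of branching gave 3 rises and 4 falls in 29 (median -0.06), near the shares of 10.7% higher and 15.1% lower over all genes. The feedback genes Spry4 of FGF signalling, Axin2 of Wnt signalling and Ptch1 of hedgehog signalling fell by 1.70 ± 0.39, 1.65 ± 0.33 and 1.10 ± 0.26 (adjusted p = 0.0211, 0.0141 and 0.0233), and Gfra1, a receptor for GDNF, fell by 1.40 ± 0.41 (adjusted p = 0.0445). Nrtn, the ligand neurturin that supports parasympathetic nerves, had 0.544 and 1.66 CPM at P18 and 5.29, 4.07 and 3.76 CPM in the adult and rose by 1.98 ± 0.50 (adjusted p = 0.0277). Fgf10, the main mesenchymal signal of salivary gland growth, had 7.67 and 6.99 CPM at P18 and 12.3, 9.16 and 11.1 CPM in the adult (adjusted p = 0.09). Sox11, Sox4, Spry4, Axin2, Ptch1, Gfra1 and Nrtn lost their calls in at least 1 fit that left out a single library.

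Cell cycle genes divided by library. Of 34 tested 3 fell, against 15.1% of all genes, and none rose (median -0.69, -0.84 with the gene-length trend removed). Mki67, the proliferation marker Ki-67, had 281 and 77.3 CPM at P18 and 58.0, 18.0 and 18.4 CPM in the adult (-2.52 ± 0.66, adjusted p = 0.0313), and Cenpe, a kinetochore motor, had 35.1 and 11.6 CPM at P18 and 7.54, 2.54 and 2.51 CPM in the adult (-2.52 ± 0.59, adjusted p = 0.0228). Ccne2, a cyclin of DNA replication, had 3.67 and 3.54 CPM at P18 and 1.17, 0.572 and 1.54 CPM in the adult (-1.70 ± 0.41, adjusted p = 0.0238). Mki67 was above every adult library in both P18 libraries, but Top2a (111 and 36.9 CPM at P18 and 41.3, 15.2 and 13.2 CPM in the adult) and Cdk1 (17.1 and 6.0 CPM at P18 and 14.5, 3.62 and 2.94 CPM in the adult) overlapped, since adult replicate 1 lay above P18 replicate 2. The helicase genes Mcm2 (18.0 and 11 CPM at P18 and 27.8, 15.6 and 13.9 CPM in the adult) and Mcm5 (18.5 and 8.60 CPM at P18 and 29.0, 11.8 and 11 CPM in the adult) and the clamp Pcna (37.4 and 41.0 CPM at P18 and 83.8, 53.7 and 47.5 CPM in the adult) were not lower in the adult mean. Summed over the list the libraries gave 956 and 420.2 CPM at P18 and 615, 307 and 285 CPM in the adult. The count and the median both turned on single libraries. Without adult replicate 1, 11 genes fell (median -1.34), and without P18 replicate 2, 8 fell (median -1.18). Without P18 replicate 1 the median changed sign to 0.16 and 1 gene fell. The count was 1 without adult replicate 3, and 0 without adult replicate 2 or without either submandibular library. Lymphoid genes, whose cells divide in lymph nodes, were also highest in adult replicate 1, and their part in this was not tested. Mki67, Cenpe and Ccne2 lost their calls in at least 1 fit that left out a single library.

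**Figure D2:**
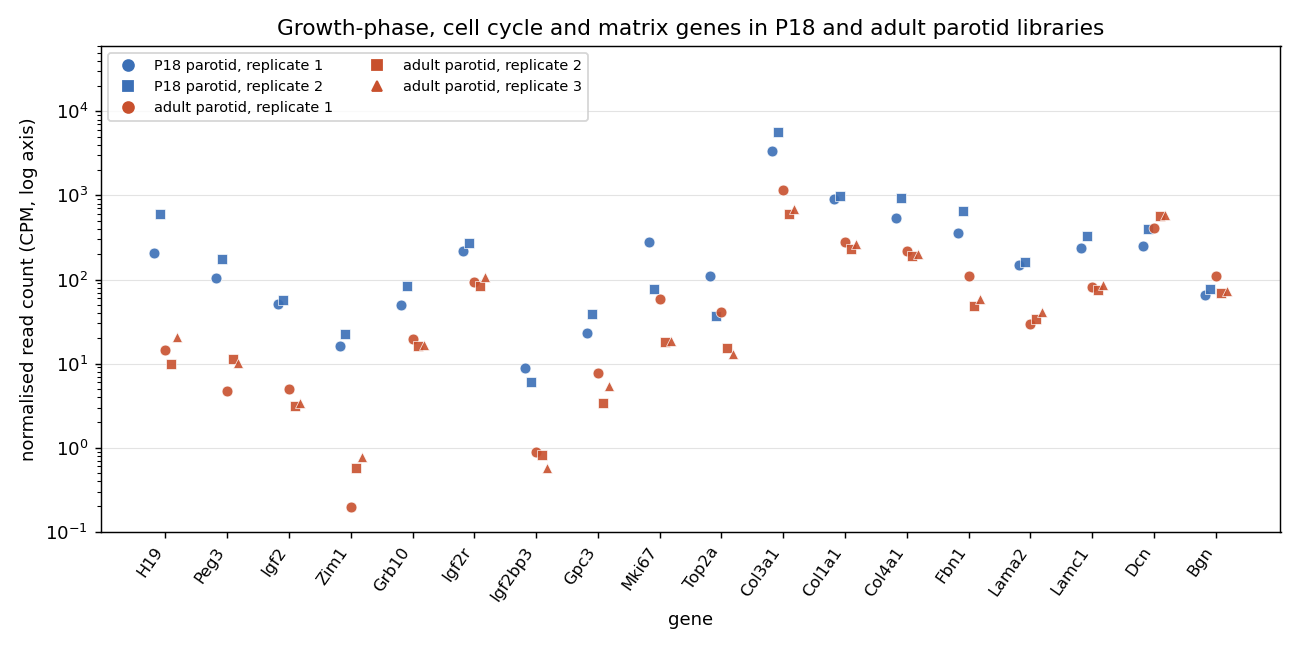
Normalised read counts (CPM, logarithmic axis) of 18 growth-phase, cell cycle and matrix genes in each parotid library, with colour for the age group and symbol for the replicate. Igf2 stands at 51.1 and 57.7 CPM at P18 and at 4.99, 3.12 and 3.43 CPM in the adult, Top2a overlaps between the ages, and Dcn lies higher in each adult library.

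Matrix genes fell in most cases. Of 17 collagen genes 14 fell and none rose (median -1.75), with 9 (without adult replicate 2) to 15 (without adult replicate 1) falling when single libraries were left out. Col3a1, a fibrillar collagen of loose connective tissue, had 3396 and 5691 CPM at P18 and 1170.2, 596 and 682 CPM in the adult (-2.48 ± 0.45, adjusted p = 0.0101), and Col1a1 had 897 and 985 CPM at P18 and 276, 234 and 267 CPM in the adult (-1.86 ± 0.25, adjusted p = 0.00463). Col5a1, which starts fibrils, fell by 2.25 ± 0.21 (adjusted p = 0.00143) and Col6a3 by 2.37 ± 0.22 (adjusted p = 0.00156). The basement membrane collagens Col4a1 and Col4a2 fell by 1.85 ± 0.27 and 1.79 ± 0.27 (adjusted p = 0.00599 and 0.00599), while Col18a1 (39.3 and 30.9 CPM at P18 and 33.1, 28.7 and 39.2 CPM in the adult) overlapped. Of 14 laminin and nidogen genes 8 fell (median -1.11), and 6 (without adult replicate 2 or 3) to 8 (without P18 replicate 1 or 2) did with single libraries left out. Lama2 had 151 and 160.4 CPM at P18 and 29.7, 33.9 and 41.1 CPM in the adult (-2.16 ± 0.19, adjusted p = 0.00143), Lamc1 fell by 1.80 ± 0.20 (adjusted p = 0.00248) and Nid1 by 1.29 ± 0.25 (adjusted p = 0.0131). Lamb3, a subunit of epithelial laminin-332, did not pass, with 17.0 and 11.2 CPM at P18 and 11.4, 18.4 and 18.0 CPM in the adult. Nid1 lost its call in at least 1 fit that left out a single library.

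Among 25 further matrix and fibroblast genes 11 fell and none rose (median -1.17, -0.69 with the gene-length trend removed), and 7 (without adult replicate 2) to 14 (without adult replicate 1) fell with single libraries left out. Fbn1 and Fbn2, the microfibril proteins, had 359 and 654 CPM at P18 and 111, 48.9 and 59.4 CPM in the adult (-2.79 ± 0.41, adjusted p = 0.00574) and 20.7 and 10.6 CPM at P18 and 2.25, 0.509 and 0.627 CPM in the adult (-3.90 ± 0.59, adjusted p = 0.00637). Eln, elastin, fell by 2.12 ± 0.30 (adjusted p = 0.00537), Lox, the enzyme that cross-links collagen and elastin, by 2.25 ± 0.29 (adjusted p = 0.00393), and Vcan by 2.13 ± 0.27 (adjusted p = 0.00376). The fibroblast receptor Pdgfra had 85.7 and 104 CPM at P18 and 45.9, 41.6 and 39.1 CPM in the adult (-1.17 ± 0.18, adjusted p = 0.00644). The small leucine-rich proteoglycans of fibroblasts were not called: Dcn had 249.7 and 403 CPM at P18 and 407, 574 and 586 CPM in the adult (adjusted p = 0.162), Lum had 62.9 and 86.3 CPM at P18 and 97.5, 63.8 and 65.4 CPM in the adult (adjusted p = 0.969) and Bgn had 66.1 and 76.7 CPM at P18 and 109.9, 68.9 and 73.1 CPM in the adult (adjusted p = 0.493). Dcn was higher in each adult library than in either P18 library, while Lum and Bgn were highest in adult replicate 1 and otherwise overlapped.

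Endothelial genes fell in 8 of 18 cases and rose in none (median -1.22). Kdr, the receptor for VEGF, had 77.8 and 185 CPM at P18 and 42.9, 29.1 and 31.4 CPM in the adult (-1.94 ± 0.36, adjusted p = 0.011) and Ptprb had 98.4 and 202 CPM at P18 and 28.5, 36.0 and 40.0 CPM in the adult (-2.11 ± 0.32, adjusted p = 0.00608), while Pecam1, carried by all endothelium, had 92.3 and 153 CPM at P18 and 101, 75.7 and 74.6 CPM in the adult with overlap. Without P18 replicate 2 the number was 4, and 1 without adult replicate 2. Nerve sheath genes fell in 4 of 11 and rose in 1. The myelin genes Pmp22 and Mbp fell by 0.89 ± 0.16 and 0.66 ± 0.17 (adjusted p = 0.0104 and 0.0293), and 1 (without adult replicate 2) to 4 (without P18 replicate 1 or 2) members fell with single libraries left out. Kdr, Pmp22 and Mbp lost their calls in at least 1 fit that left out a single library.

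Fat and muscle genes were highest in P18 replicate 2. Brown fat genes fell in 9 of 13 (median -2.12), but 4 without P18 replicate 2 and 2 without adult replicate 2. Ucp1, the uncoupling protein that makes heat in brown fat, had 674 and 2802 CPM at P18 and 623, 345 and 179 CPM in the adult (-2.19 ± 0.67, adjusted p = 0.049), and Cidea had 216 and 848 CPM at P18 and 141, 143 and 84.7 CPM in the adult (-2.12 ± 0.54, adjusted p = 0.0283). Summed brown fat genes gave 1407 and 5664 CPM at P18 and 1073, 781 and 471 CPM in the adult, and adult replicate 1 came close to P18 replicate 1. Of 19 general fat genes 3 rose and 3 fell. Adipoq had 174 and 523 CPM at P18 and 254, 181 and 171 CPM in the adult and Plin1 had 115 and 377 CPM at P18 and 98.7, 94.9 and 105 CPM in the adult, neither called. Enzymes that make fatty acids rose, Scd1 with 162 and 377 CPM at P18 and 1932, 2082 and 1826 CPM in the adult (2.85 ± 0.43, adjusted p = 0.00619) and Fasn with 190.3 and 224 CPM at P18 and 1360.1, 543 and 782 CPM in the adult (2.11 ± 0.43, adjusted p = 0.015). Skeletal muscle genes gave 2 falls in 20, against 15.1% of all genes. These were the giant protein gene Ttn (1511 and 4744 CPM at P18 and 24.0, 74.0 and 283 CPM in the adult, -4.62 ± 1.29, adjusted p = 0.0382) and the perinatal myosin Myh8 (1.09 and 4.84 CPM at P18 and 0.0979, 0.191 and 0.386 CPM in the adult, -3.56 ± 0.81, adjusted p = 0.0244). Of 10 classes of gene length, described below, Ttn lies in the longest, in which 45% of genes fell. The adult fast myosin Myh4 overlapped at 589.7 and 2470.3 CPM at P18 and 98.6, 455 and 2159 CPM in the adult, and with P18 replicate 2 left out 0 muscle genes fell and 1 rose. Ucp1, Cidea, Ttn and Myh8 lost their calls in at least 1 fit that left out a single library.

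Mitochondrial enzymes were high in the same library. Of 25 genes of the citric acid cycle and fatty acid oxidation 17 fell and none rose (median -1.76). Acaa2, a thiolase of fatty acid oxidation, had 389 and 1625 CPM at P18 and 201, 200.1 and 137 CPM in the adult (-2.49 ± 0.54, adjusted p = 0.0174). In this gene P18 replicate 2 stood far above every other library. Without P18 replicate 2 the count was 7 and the median -0.52, and without adult replicate 2 it was 0. The oxidative phosphorylation genes gave 3 rises and 8 falls in 80 (median -0.99). Without P18 replicate 2 that median was 0.03, with 5 rises and 1 fall. Atp5g3, an ATP synthase subunit, had 79.4 and 91.9 CPM at P18 and 187, 199 and 191 CPM in the adult and rose by 1.17 ± 0.18 (adjusted p = 0.00697), while the muscle and brown fat forms Cox7a1 and Cox8b fell by 2.46 ± 0.51 and 2.36 ± 0.55 (adjusted p = 0.0157 and 0.022). Brown fat and muscle hold many mitochondria, and their genes were highest in the same library, but the part of these tissues in the mitochondrial values was not tested. Acaa2, Cox7a1 and Cox8b lost their calls in at least 1 fit that left out a single library.

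**Figure D3:**
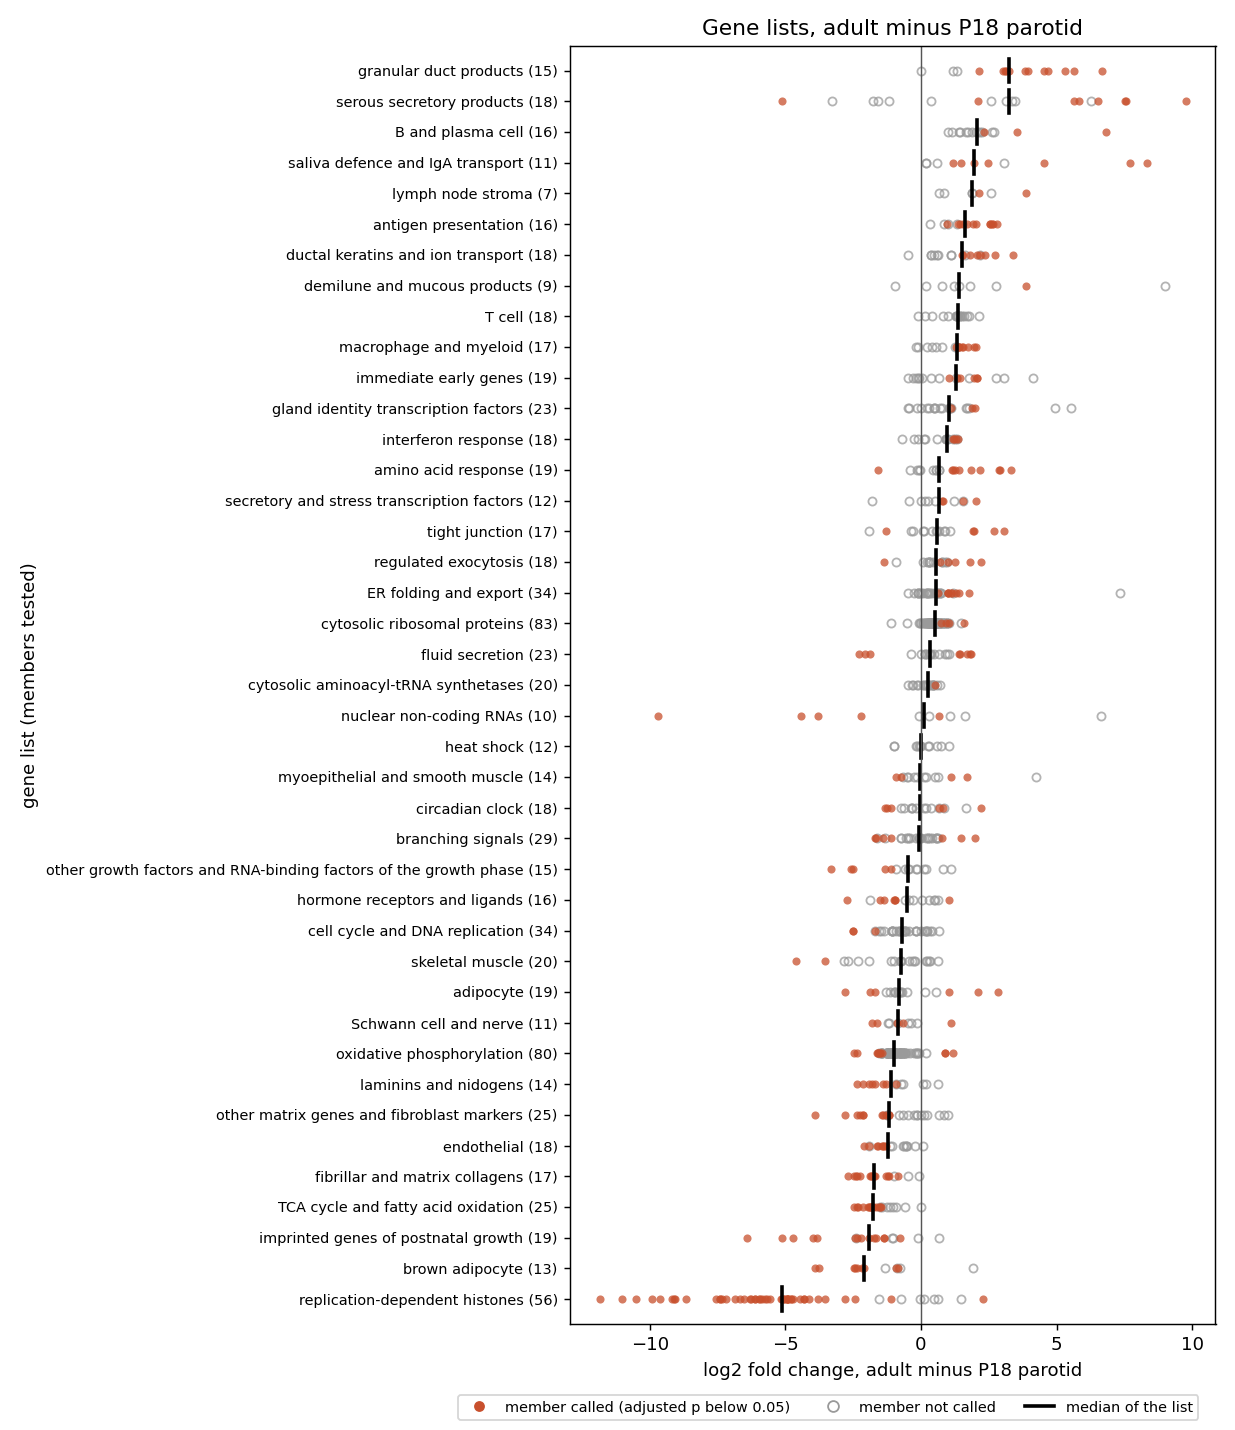
Log2 fold changes (adult minus P18 parotid) of the tested members of 41 gene lists, 1 point per gene, filled where the gene was called, with a bar at the median of each list. Medians run from 3.25 for granular duct and serous products to -5.14 for replication-dependent histones, and the medians of imprinted, collagen and brown fat genes lie to the left of 0. Histone genes without an adult count are drawn at their fitted value.

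The largest falls of all were in RNAs that carry no poly(A) tail. Rpph1, the RNA of RNase P that trims transfer RNAs, had 2254 and 3135 CPM at P18 and 1.76, 3.12 and 0.482 CPM in the adult (-10.58 ± 0.83, adjusted p = 0.00124), and Rmrp, the related RNA of RNase MRP, had 1307 and 1992 CPM at P18 and 0.979, 4.64 and 0.289 CPM in the adult (-9.70 ± 1.08, adjusted p = 0.00247). Rnu12, a spliceosomal RNA, had 66.7 and 61.8 CPM at P18 and no count in any adult library, at least 999-fold lower with the floor at 3 counts over the adult group. Small nucleolar and Cajal body RNA genes fell in 40 of 57 tested and rose in 1, Snord96a, and their summed level was 665 and 806 CPM at P18 against 16.6, 32.4 and 28.0 CPM in the adult. Snord15b had 96.3 and 74.8 CPM at P18 and 0.0979, 0.318 and 0.386 CPM in the adult (adjusted p = 0.000306), Scarna13 had 18.8 and 29.4 CPM at P18 and 0.0979, 0.127 and 0.0965 CPM in the adult (adjusted p = 0.000306) and Snord22 had 65.5 and 50.6 CPM at P18 and 1.96, 2.35 and 1.88 CPM in the adult (adjusted p = 0.000306). Scarna10 went from 1530 and 3265 counts at P18 to 0, 1 and 0 counts in the adult, a ratio of 5043 with a 95% exact Poisson interval of 905 to 199248. This class was chosen after its values were seen. These are small RNAs that guide the modification of ribosomal and spliceosomal RNA. Of 56 replication-dependent histone genes, whose mRNAs end in a stem-loop in place of a tail, 48 fell and 1 rose, and their sum was 576 and 486 CPM at P18 and 77.1, 133 and 119 CPM in the adult. The median was -5.14, or -4.94 with the 12 genes at 0 in the adult set to their bound, and 45 (without adult replicate 3) to 48 (without P18 replicate 2 or adult replicate 1) fell with single libraries left out. Hist1h4h had 24.8 and 39.9 CPM at P18 and 0.881, 1.14 and 0.868 CPM in the adult (-5.06 ± 0.28, adjusted p = 0.000332). Hist1h1d, a linker histone, fell by 5.94 ± 0.36 (adjusted p = 0.000488), and Hist1h4c had 421 and 761 counts at P18 and none in the adult, at least 414-fold lower. Histone genes known to make polyadenylated mRNA in resting cells as well were not called: Hist1h2bc had 18.1 and 18.9 CPM at P18 and 15, 24.7 and 19.5 CPM in the adult and Hist2h2be had 9.98 and 12.0 CPM at P18 and 10.8, 19.9 and 19.5 CPM in the adult. The nuclear RNAs Malat1, whose end is a triple helix, and Kcnq1ot1 fell by 4.44 ± 0.58 and 3.79 ± 0.45 (adjusted p = 0.00403 and 0.003), while Neat1 had 279 and 191 CPM at P18 and 231, 903 and 1032 CPM in the adult (adjusted p = 0.0899). Snord96a lost its call in at least 1 fit that left out a single library.

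These RNAs were as high in the P18 submandibular libraries as in the P18 parotid. Rpph1 had 3949.8 and 4212 CPM and Rmrp 2312 and 2364 CPM there, and summed small nucleolar and Cajal body RNAs 880 and 792 CPM. The labels give polyadenylated RNA for every library. The level of untailed RNA therefore separated all 4 P18 libraries from all 3 adult libraries, and stage and the make-up of the libraries cannot be told apart for them. If the preparation of the libraries differed between the ages, it cannot be told apart from age for any other gene compared here either. Dividing cells make most of the histone mRNA. The summed cell cycle genes were 956 and 420.2 CPM at P18 and 615, 307 and 285 CPM in the adult. The part of division in the histone values was not tested.

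**Figure D4:**
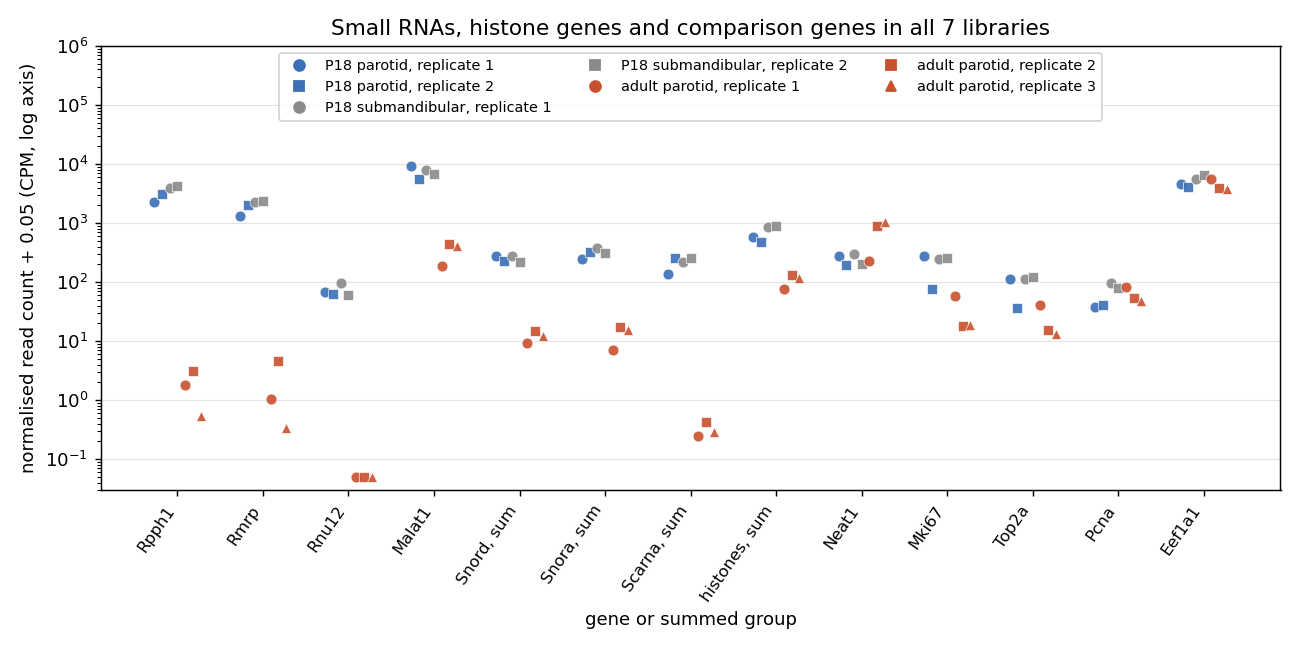
Normalised read counts plus 0.05 (CPM, logarithmic axis) of untailed RNAs, histone genes and comparison genes in all 7 libraries, with colour for the group and symbol for the replicate. Rpph1, Rmrp and Rnu12 are high in all 4 P18 libraries of both glands and at or near 0 in the 3 adult libraries, while Eef1a1, Pcna and Neat1 are present in all 7.

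Gene length moved with the comparison. In 10 equal classes of relative gene length (count divided by TPM), the median log2 fold change ran from 0.27 in the shortest genes to -0.73 in the longest, and 45% of the longest class fell against 0.859% that rose. In the shortest class 11.5% fell and 19.3% rose. Among the genes that fell with the smallest adjusted p were Zbtb20, a zinc finger repressor of middling length with 46.0 and 55.2 CPM at P18 and 1.96, 1.97 and 2.07 CPM in the adult (-4.65 ± 0.24, adjusted p = 0.000332), and Lnpep, a long aminopeptidase gene with 122 and 164 CPM at P18 and 16.8, 17.3 and 18.0 CPM in the adult (-3.04 ± 0.18, adjusted p = 0.000486). With each library's trend on length removed, 2800 genes were called, 1255 higher and 1545 lower, and 2410 of them were among the 3915. On this footing 11 imprinted, 12 collagen, 5 laminin and nidogen and 9 other matrix genes still fell, and 12 granular duct, 6 serous, 10 antigen presentation and 10 endoplasmic reticulum genes rose. Counts that moved by more than 1.5 times include the laminin falls, from 8 to 5, and the oxidative phosphorylation falls, from 8 to 33. Falls among other growth factors went from 5 to 3. Rises went from 4 to 2 among secretory and stress transcription factors, from 4 to 1 among interferon response genes, from 3 to 1 among B and plasma cell genes, from 2 to 0 among lymph node stroma genes, from 4 to 1 among cytosolic ribosomal protein genes and from 3 to 5 among branching signals. The other lists with a count that moved so far had no more than 4 calls in that direction. Whether the trend belongs to the tissue or to the libraries was not tested.

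**Figure D5:**
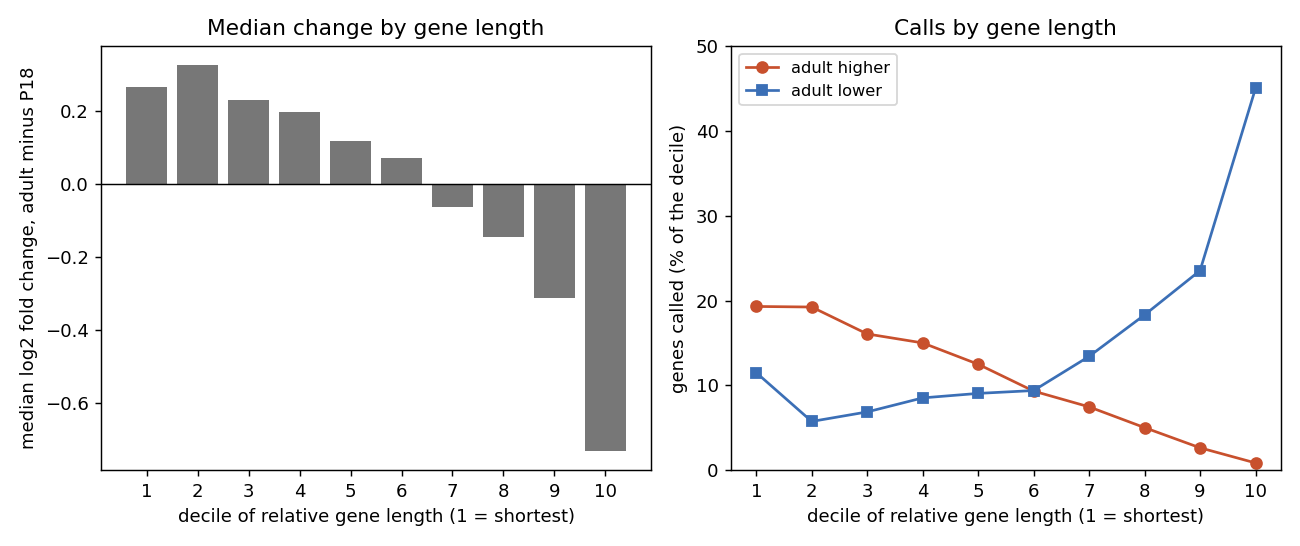
Median log2 fold change (left, bars) and percent of genes called in each direction (right, lines) in 10 equal classes of relative gene length from the shortest to the longest. The median falls from 0.27 to -0.73 and the share called lower reaches 45% in the longest class.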

How the data were processed

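RNA was sequenced from 7 libraries, and the authors deposited a table of gene counts and a table of TPM (an abundance corrected for gene length, summing to 1000000 per library). Per the submitters' processing notes the build was mm9 and the tools included featureCounts 1.5.1, TopHat2 2.1.1, DESeq2 1.20.0 and Bowtie2 2.2.6, and whether counting used strand is not stated there, so overlapping and antisense genes may share reads. Another 2 columns of the count table match no labelled sample and were not used. Counts were tested with edgeR 4.0.16 (R 4.3.3): TMM factors, filterByExpr and a quasi-likelihood F test in which 3 group means left 4 residual degrees of freedom. P-values were adjusted by Benjamini-Hochberg over 15129 genes with a threshold of 0.05. CPM are counts per 1000000 of TMM-scaled library size, and standard errors are the log2 fold change divided by the square root of F. TPM served for levels between genes and for an alternative with limma 3.58.1, and DESeq2 1.42.0 for another. The totals of 12844534 to 28856127 counts per parotid library set the precision, and intervals and floors (3 counts) cover counting error only. The test was checked on simulated counts. Medians of 42 gene lists are descriptions. Genes were named by the 10 largest changes and the 10 smallest adjusted p in each direction (at least 20 CPM in a group mean, and for the largest changes no overlap and no clone-type name), the most abundant genes and up to 2 per list and direction. Other genes named within the lists were chosen after their values were seen. The members and lists were chosen with earlier results of these data known. Some genes are not reported here.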

Additional observations from a re-analysis of the deposited data

How the results depend on the processing

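The number of genes called (3915) was within 1.5 times under DESeq2 size factors in edgeR, DESeq2, removal of the 50 most abundant genes, both other filters on low counts and the removal of the length trend, which was chosen after seeing the data. It was 10953 with plain library sizes, 2182 with only the parotid libraries in the fit, 562 against a fold of 2, and 13059, 13069 and 14170 on log2(TPM + 1), log2(TPM + 0.1) and log2(TPM + 1) without a filter, where the median of all genes shifted by -1.65, -1.85 and -1.65. Single libraries left out gave 1306 to 6073, and 6518 were called without P18 replicate 2 and adult replicate 1 together. A lone P18 library is assumed to vary like the other groups. With the replicate block 1496 genes were called. The deviations of same-numbered parotid libraries from their group means correlated at 0.0833 and 0.0265. P18 replicates 1 and 2 correlated with adult replicate 3 at -0.0919 and 0.0919. With 2 P18 libraries the deviations of replicate 2 are those of replicate 1 with the sign reversed. These values therefore cannot show whether the numbers pair samples.

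Of the 159 named genes that were called, 101 kept their call without each single library. Of 85 called higher, 11 lay below 0 when plain library sizes were used, and 1 was then called lower. On log2(TPM + 1) 29 of the 85 lay below 0, and 15 were then called lower. None of the 74 genes called lower with all libraries lay above 0 in either setting. With the shift of all genes subtracted, the values on log2(TPM + 1), with and without a filter, changed sign for Dlk1 (0.37), Gfra1 (0.066), Myh8 (0.50), Rtl1 (0.39), Sox11 (1.19) and Trpc1 (0.069), by construction of a pseudocount that shrinks low values. Without P18 replicate 2 and adult replicate 1 the differences of Cd163 (0.49), Eif2s3y (0.39) and Glycam1 (-1.37), not called with all libraries, took the opposite sign and passed. With 4 residual degrees of freedom, simulated counts gave calls for 9 of 67 genes changed 2-fold, 62 of 67 changed 4-fold and 66 of 66 changed 8-fold, so small changes can be missed. The simulation gave a gene the same spread in every group. In the data the P18 parotid pair was less alike (correlation of log2 CPM 0.933) than the submandibular pair (0.991). The simulated rates may therefore not hold here, and Smr3a was not called at a log2 difference of 6.26.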

Other observations

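Barrier and hormone receptor genes changed in both directions. Of 17 tight junction genes 4 rose and 1 fell (median 0.58, -0.66 with plain library sizes). Cldn10, a claudin that forms ion pores, had 12.1 and 7.25 CPM at P18 and 54.6, 67.7 and 62.9 CPM in the adult (2.68 ± 0.28, adjusted p = 0.00214), and Cldn2, Cldn4 and Cldn7 rose by 3.06 ± 0.53, 1.92 ± 0.32 and 1.94 ± 0.34 (adjusted p = 0.0093, 0.00856 and 0.00942). The scaffold Tjp1 had 98.5 and 123 CPM at P18 and 40.3, 42.2 and 51.9 CPM in the adult (-1.31 ± 0.19, adjusted p = 0.00537). Of the 10 classes of gene length described above, Tjp1 lies in the longest, in which 45% of genes fell. Hormone and vitamin receptors fell in 6 of 16 cases and rose in 1 (median -0.52, 0.09 with the gene-length trend removed). The oestrogen receptor Esr1 had 18.1 and 39.1 CPM at P18 and 3.92, 4.13 and 4.82 CPM in the adult (-2.73 ± 0.42, adjusted p = 0.00643) and the glucocorticoid receptor Nr3c1 had 140.0 and 171 CPM at P18 and 81.5, 74.2 and 77.0 CPM in the adult (-1.0 ± 0.17, adjusted p = 0.00901). With single libraries left out 4 (without P18 replicate 2 or adult replicate 1 or 2 or 3 or submandibular replicate 1 or 2) to 10 (without P18 replicate 1) tight junction genes rose and 2 (without adult replicate 2) to 6 (without P18 replicate 1) receptor genes fell. The vitamin D receptor Vdr rose by 1.03 ± 0.30 (adjusted p = 0.0419). Nr3c1 and Vdr lost their calls in at least 1 fit that left out a single library.

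Clock genes gave 3 rises and 3 falls in 18, and the hour of collection is not given in the sources used here. Nr1d1, a repressor of the clock, had 13.2 and 13.1 CPM at P18 and 62.7, 57.6 and 65.0 CPM in the adult (2.23 ± 0.24, adjusted p = 0.00227), and Per3 had 52.2 and 52.9 CPM at P18 and 16.6, 20.8 and 25.0 CPM in the adult (-1.33 ± 0.20, adjusted p = 0.00581). Immediate early genes, which respond within minutes to stimulation or handling, rose in 6 of 19 cases, and adult replicate 2 was the highest library for Fos, with 3.08 and 4.34 CPM at P18 and 5.38, 76.3 and 10.2 CPM in the adult, and for Egr1, with 10.7 and 4.93 CPM at P18 and 13.9, 113 and 34.6 CPM in the adult. Neither passed the test (adjusted p = 0.0848 and 0.0531), while Jund, at 26.2 and 34.1 CPM at P18 and 121, 133 and 96.5 CPM in the adult, rose by 1.95 ± 0.23 (adjusted p = 0.00299). Of 12 heat shock genes 0 were called by edgeR and 3 had an unadjusted p below 0.05, against 1 higher and 1 lower by DESeq2. Lymph node stroma genes rose in 2 of 7, Cxcl13 and Ltb. With single libraries left out 1 (without adult replicate 3 or submandibular replicate 1 or 2) to 3 (without P18 replicate 1 or adult replicate 1) clock genes and 2 (without P18 replicate 2) to 9 (without adult replicate 1) immediate early genes rose. Cxcl13 and Ltb lost their calls in at least 1 fit that left out a single library.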
